A study of Mus musculus with 2 samples.

Results

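Interferon-stimulated genes were followed in liver endothelial cells and in the other cells captured with them, in 1 library from control mice and 1 library from mice with cirrhosis. The members were a fixed list of 39 genes, chosen by name as genes that interferons switch on, and 38 of them were among the 31057 gene rows of the count tables. Mx2 is not analysed here. The mice were C57BL/6, 16 weeks old, and had a Cre recombinase under the endothelial Cdh5 promoter together with the mTmG reporter (labelled Cdh5-Cre+, mTmG +/+), which turns recombined cells from tdTomato to eGFP. Cirrhosis was induced by inhaled carbon tetrachloride vapour, a toxin activated by hepatocytes, over 12 weeks, and what the control mice inhaled is not given in the sources used here. Live GFP-positive non-parenchymal cells of 3 mice per group were pooled before the library was made, so animals cannot be told apart. Each group being a single library, differences could not be set against replicates and no test was made, and the intervals below are 95% intervals that cover counting error only.

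Interferons are cytokines that signal through 3 receptor types. Type I interferons bind the receptor of IFNAR1 and IFNAR2 and, through JAK1 and TYK2, form a complex with STAT2 and IRF9 that binds the interferon-stimulated response element (ISRE). Interferon gamma, made by T and NK cells, binds IFNGR1 and IFNGR2 and acts through gamma-activated sites (GAS) and through IRF1. Sinusoidal endothelial cells (LSECs) line the capillaries of the liver, take up material from portal blood and carry both receptors.

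The control library held 5642 barcodes and 45767322 UMIs (unique molecular identifiers, each 1 captured transcript), and the cirrhosis library held 8327 barcodes and 77339928 UMIs. After filters and removal of likely doublets 4953 and 7191 barcodes were kept, and 17 barcode sequences occurred in both libraries. There were 2978 control and 2829 cirrhosis LSEC-like cells, at medians of 6970 and 9667 UMIs. They carried the endothelial genes Pecam1 (643 and 698 CPM), Cdh5 (1004 and 1109 CPM) and eGFP (1737 and 1500.4 CPM), and the LSEC receptor gene Stab2 (2359 and 1677 CPM). CPM give a gene's UMIs relative to all UMIs of a class in 1 library, so levels of different genes are shares of UMIs. Immediate-early RNA differed between the libraries, with Fos at 2212 CPM in control and 211 CPM in cirrhosis LSEC-like cells. Markers of other cells were present in them: 12 Kupffer cell or macrophage markers summed to 110.4 and 286 CPM, against 27669 and 27011 CPM in Kupffer cell-like barcodes. The 12 hepatocyte markers summed to 379 and 599 CPM, and the 12 T or NK cell markers to 16.0 and 8.0 CPM. The 10 B cell markers summed to 126 and 50.7 CPM, the 9 stellate cell markers to 113 and 42.0 CPM, the 7 cholangiocyte markers to 22.0 and 40.2 CPM and the 8 neutrophil or monocyte markers to 4.24 and 8.69 CPM. Of these 7 lists only the neutrophil gene Ly6g was at 0, in both libraries, and their part in the results was not tested. Classes were clustered without the members and without the other interferon genes described here.

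In LSEC-like cells, interferon-stimulated genes were higher in the cirrhosis library as a list, but not evenly. The 4 IFIT genes, Oasl1, Oas1a, Isg15, Usp18, Irf7, Rsad2, Ifi44 and the sensors Zbp1 and Dhx58 stood 2-fold higher or more, while the p200-family DNA sensors, Stat2 and all but 1 of the measured interferon-inducible GTPases stood near the same level or slightly lower. All 38 members summed to 3786 CPM (exact Poisson interval 3761 to 3812) in control and 5600.0 CPM (5572 to 5628) in cirrhosis LSEC-like cells, 1.48-fold higher. A member counted as measured at a mean of at least 5 CPM over both libraries with at least 1 UMI in each, and 35 were. Of these, 31 were higher in cirrhosis and 4 lower, where 42.5% of 9724 measured genes were higher. At the 2-fold threshold 13 members were higher and 0 lower, against 2.26% and 2.47% of all measured genes. The median log2 ratio of cirrhosis over control was 0.64 for the members and -0.06 for all genes. More interferon-responding cells or more RNA per responding cell can give the same higher sum, so the distribution over cells is described further on.

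**Figure D1:**
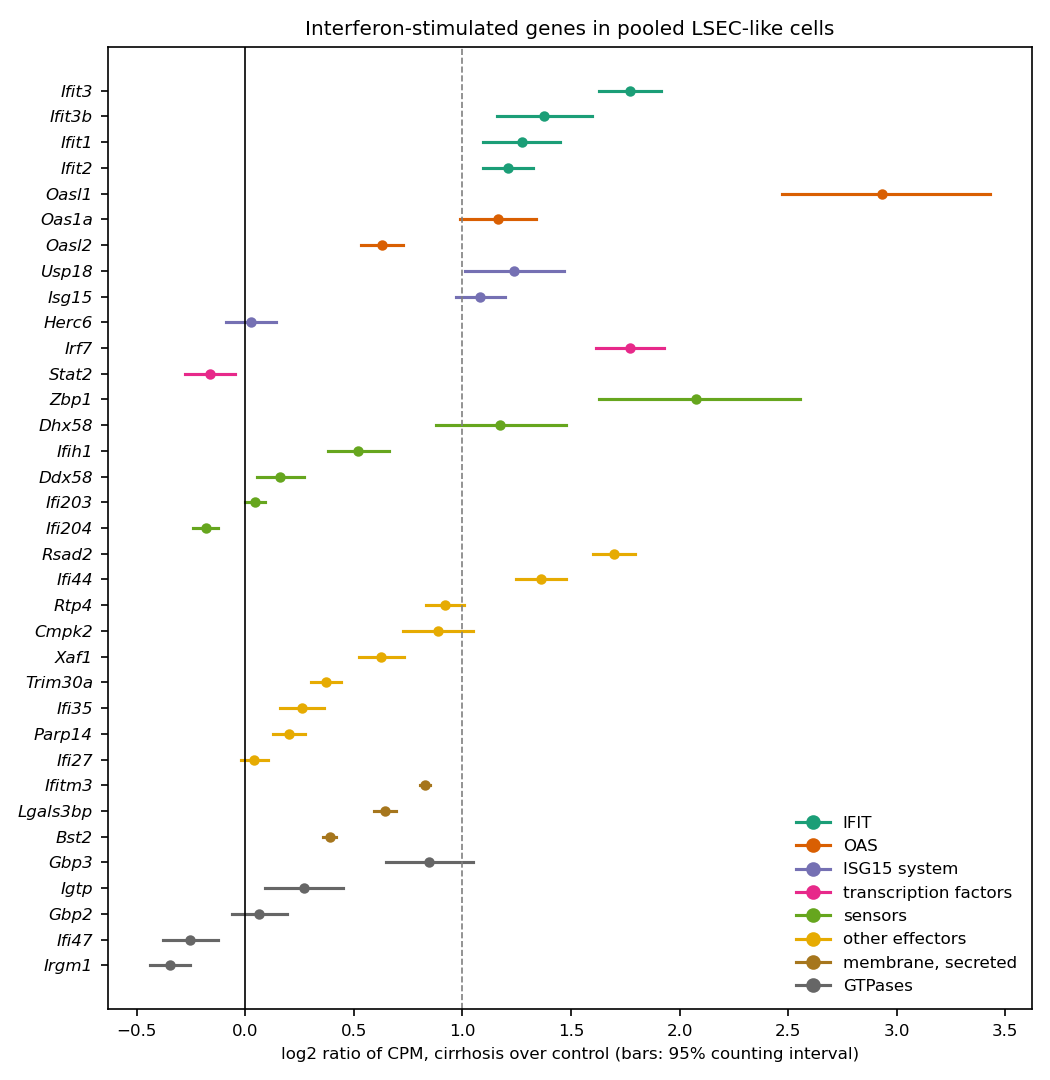
Log2 ratio of CPM, cirrhosis over control, for the 35 measured members in pooled LSEC-like cells (x axis), ordered by role (y axis, colours); bars are 95% counting intervals, the solid line marks equal levels and the dashed line 2-fold. The IFIT genes all lie beyond 2-fold, while Stat2 and the GTPases except Gbp3 lie near the solid line or left of it.

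The 4 IFIT genes encode tetratricopeptide proteins that bind viral RNA, and they lie side by side on chromosome 19 from Ifit2 (GRCm38 chr19:34550694-34576419) to Ifit1 (chr19:34640871-34650009). Ifit3 stood at 22.1 CPM in control and 75.7 CPM in cirrhosis (log2 1.77, interval 1.63 to 1.92). Ifit3b, its near-identical neighbour, stood at 10.3 and 26.6 CPM (1.38, 1.16 to 1.60), and reads of the pair may be split between them. Ifit1 stood at 15.7 and 37.9 CPM (1.27, 1.10 to 1.45). Ifit2 stood at 36.7 and 84.8 CPM (1.21, 1.09 to 1.32). All 4 were thus above 2-fold in the cirrhosis library.

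The oligoadenylate synthetases (OAS) sense double-stranded RNA and activate RNase L, and Oasl1 and Oasl2 are related proteins. Oasl1 stood at 1.88 and 14.3 CPM (log2 2.93, interval 2.47 to 3.43), the largest ratio among the measured members. Oas1a stood at 16.3 and 36.6 CPM (1.16, 0.99 to 1.34). Oasl2 stood at 57.7 and 89.3 CPM (0.63, 0.53 to 0.73). Oas2 rested on 5 control and 123 cirrhosis UMIs, 0.223 and 4.45 CPM, and Oas3 on 3 and 10 UMIs, so neither was measured. In the ISG15 system, Isg15, a ubiquitin-like modifier, stood at 39.6 and 83.8 CPM (1.08, 0.97 to 1.20). Usp18, the protease that removes it and also dampens the type I receptor, stood at 9.64 and 22.7 CPM (1.24, 1.01 to 1.47). Herc6, the ligase that attaches it in mice, did not share this difference, at 49.7 and 50.6 CPM (0.03, -0.09 to 0.14).

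The 2 transcription factors went apart. Irf7, which drives type I interferon genes, stood at 18.8 and 64.3 CPM (log2 1.77, interval 1.62 to 1.93). Stat2, part of the complex that type I interferon activates, stood at 52.0 and 46.5 CPM (-0.16, -0.28 to -0.05). Among the sensors, the RNA helicase genes differed from one another. Dhx58 stood at 5.76 and 12.996 CPM (1.17, 0.88 to 1.48), Ifih1 at 28.9 and 41.5 CPM (0.52, 0.38 to 0.66) and Ddx58 at 54.5 and 60.9 CPM (0.16, 0.05 to 0.27). Zbp1, a sensor of left-handed nucleic acid, rested on 48 and 250 UMIs, 2.14 and 9.05 CPM (2.08, 1.63 to 2.56). The p200-family genes Ifi203, at 302 and 311 CPM (0.04, -0.001 to 0.09), and Ifi204, at 201 and 178 CPM (-0.18, -0.24 to -0.12), stood close to equal. Ifi203 overlaps its relative Mndal on the same strand, so its counts are uncertain.

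Among the membrane and secreted products, Ifitm3, which blocks viral entry at the endosome, stood at 1058 and 1878 CPM (log2 0.83, interval 0.81 to 0.85). Lgals3bp, a secreted glycoprotein, stood at 210.0 and 328 CPM (0.64, 0.59 to 0.69). Bst2 (tetherin), which holds budding virus at the cell surface, stood at 701 and 918 CPM (0.39, 0.36 to 0.42). These 3, with Ifi27 and Igtp, had been set aside as likely abundant, and those 5 held 57.2% of member UMIs in control and 59.5% in cirrhosis, although Igtp itself was low. Without them the other 33 members summed to 1621 and 2270.5 CPM, 1.40-fold higher, and the median log2 ratio of the 30 measured was 0.87.

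Of the other effectors, Rsad2 (viperin), which makes a chain-terminating nucleotide, stood at 49.4 and 160.4 CPM (log2 1.70, interval 1.60 to 1.79). Cmpk2, its head-to-head neighbour on chromosome 12, stood at 20.4 and 37.6 CPM (0.89, 0.73 to 1.05). Ifi44 stood at 36.0 and 92.7 CPM (1.36, 1.25 to 1.48), and Rtp4, a regulator of receptor trafficking, at 66.6 and 126 CPM (0.92, 0.83 to 1.01). The apoptosis-linked Xaf1 stood at 51.3 and 79.1 CPM (0.63, 0.52 to 0.73). The ratios were smaller for Trim30a, at 118 and 153 CPM (0.37, 0.30 to 0.44), and Ifi35, at 60.5 and 72.5 CPM (0.26, 0.16 to 0.36). Parp14, an ADP-ribosyltransferase, stood at 110.2 and 127 CPM (0.20, 0.13 to 0.28). Ifi27 was nearly equal, at 176 and 182 CPM (0.04, -0.02 to 0.10).

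The interferon-inducible GTPases, which attack the vacuoles of intracellular pathogens and are strong targets of interferon gamma, had no member past 2-fold, and the median log2 ratio of the 5 measured was 0.06. Irgm1 stood at 85.6 and 67.3 CPM (-0.35, interval -0.44 to -0.25) and Ifi47 at 43.8 and 36.8 CPM (-0.25, -0.38 to -0.12), both lower in cirrhosis. Gbp2 stood at 40.5 and 42.4 CPM (0.06, -0.06 to 0.19), and Igtp, which overlaps Irgm2 on the same strand and may share its reads, at 19.5 and 23.5 CPM (0.27, 0.09 to 0.45). Gbp3 was the exception, at 13.2 and 23.7 CPM (0.85, 0.65 to 1.05). Mx1 rested on 6 and 15 UMIs.

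Control LSEC-like cells came mostly from 2 first-step clusters, 1891 cells with Fos at 2830.5 CPM and 974 cells with Fos at 251 CPM, at medians of 7892 and 4824 UMIs. Gm42418, a transcript that overlaps ribosomal RNA repeats, stood at 1517 CPM in the first and 4171 CPM in the second, and the part of Fos, Gm42418 and depth in the ratios was not tested. Set against the first group alone, the median log2 ratio of the members was 0.70 with 12 past 2-fold, and against the second 0.80 with 15. Isg15 stood at 44.6 CPM in the first group and 23.9 CPM in the second, so its log2 ratio was 0.91 or 1.81. Irgm1 turned, to 0.25, against the second group, where it stood at 56.6 CPM. Herc6, Ifi203 and Ifi27 also turned there, to -0.22, -0.15 and -0.02. Irf7 (1.74 and 1.95) and Ifit3 (1.68 and 2.13) kept their direction against both groups.

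The letters of the 2 elements through which interferons act were looked for in promoters from 250 bases before to 50 bases after the start, as given by RefSeq for build GRCm38.p6, which covered 29 of the 39 members. ISRE was searched as GAAA, any 2 bases and GAAA again, and GAS as TTCNNNGAA, on both strands, and the elements may overlap. ISRE letters stood in the windows of 18 of 29 members, against 3.99% of 27025 gene symbols, and GAS letters in 6 of 29, against 9.55%. Of the members past 2-fold in LSEC-like cells 6 of 10 with a window held ISRE letters, and of the other measured members 11 of 18. The stretches below are the 160 bases before the start of 4 members above 2-fold and of 4 GTPase genes below 2-fold in either direction, 5′ to 3′ on the strand of the gene, with matches in capitals.

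Ifit1 (chr19:34640729-34640888, + strand): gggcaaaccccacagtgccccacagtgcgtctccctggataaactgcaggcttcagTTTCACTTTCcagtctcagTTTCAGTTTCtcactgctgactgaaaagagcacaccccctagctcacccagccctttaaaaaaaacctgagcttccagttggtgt
Ifit3 (chr19:34583369-34583528, + strand): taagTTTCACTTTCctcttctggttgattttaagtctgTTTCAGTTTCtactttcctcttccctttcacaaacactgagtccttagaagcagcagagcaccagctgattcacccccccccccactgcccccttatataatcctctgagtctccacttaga
Isg15 (chr4:156200819-156200978, - strand): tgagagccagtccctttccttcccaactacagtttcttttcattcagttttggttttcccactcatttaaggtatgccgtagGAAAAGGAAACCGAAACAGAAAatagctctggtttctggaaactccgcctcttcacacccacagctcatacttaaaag
Rsad2 (chr12:26456453-26456612, - strand): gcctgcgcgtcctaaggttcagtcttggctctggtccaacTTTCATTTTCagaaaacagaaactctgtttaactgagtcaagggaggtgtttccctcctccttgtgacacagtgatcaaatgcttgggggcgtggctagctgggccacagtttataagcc
Irgm1 (chr11:48871421-48871580, - strand): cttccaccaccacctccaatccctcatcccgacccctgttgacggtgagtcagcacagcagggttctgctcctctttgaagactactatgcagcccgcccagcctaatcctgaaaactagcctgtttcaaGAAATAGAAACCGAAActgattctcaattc
Igtp (chr11:58199396-58199555, + strand): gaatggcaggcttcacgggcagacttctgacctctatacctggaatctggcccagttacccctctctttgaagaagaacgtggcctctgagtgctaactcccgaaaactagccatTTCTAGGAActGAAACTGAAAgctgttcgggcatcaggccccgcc
Gbp2 (chr3:142620503-142620662, + strand): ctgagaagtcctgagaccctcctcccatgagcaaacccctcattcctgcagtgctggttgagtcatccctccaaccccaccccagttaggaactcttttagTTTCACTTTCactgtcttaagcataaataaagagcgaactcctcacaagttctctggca
Ifi47 (chr11:49076427-49076586, + strand): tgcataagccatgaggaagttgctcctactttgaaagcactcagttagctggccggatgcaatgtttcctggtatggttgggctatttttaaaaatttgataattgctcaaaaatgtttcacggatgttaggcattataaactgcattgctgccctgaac

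Ifit1 and Ifit3 each held 2 ISRE matches, Isg15 held 3 overlapping ones and Rsad2 held 1. Irgm1, lower in cirrhosis, held 2 overlapping ISRE matches that began 24 and 30 bases before the start, and Gbp2 held 1. Igtp held 1 ISRE and 1 GAS match. Ifi47 held neither in its whole window, and so did Irf7, Oasl1, Ifi44, Oasl2, Xaf1, Cmpk2, Herc6 and Lgals3bp. A match is a description of letters and not a measured site.

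The second comparison asked whether the difference lay in all endothelial zones. It was present in each zone of the lobule and in large vessels, and periportal LSEC-like cells had the highest summed level of the 3 zones in both libraries. Pericentral LSEC-like cells (466 control, 522 cirrhosis) summed to 3536 CPM (3477 to 3597) and 4665 CPM (4610 to 4721), 1.32-fold higher. Intermediate cells (1985 and 1899) summed to 3693 CPM (3662 to 3724) and 5684 CPM (5649 to 5719), 1.54-fold higher. Periportal cells (527 and 408) summed to 4409 CPM (4342 to 4476) and 6602 CPM (6521 to 6682), 1.497-fold higher. Neighbouring zones did not overlap in their counting intervals in either library, and differences between the zones' ratios were not tested. Large-vessel endothelial-like cells (93 and 223) summed to 4165 CPM (4035 to 4299) and 6715 CPM (6612 to 6819), 1.61-fold higher. One cirrhosis cell of the large-vessel class held 491 member UMIs, 3.03% of the class. Without the highest cell of each library the sums were 4121 and 6536 CPM.

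In pericentral cells 26 of 34 measured members were higher, against 43.0% of all genes. At the 2-fold threshold 9 were higher and 0 lower there, against 3.02% and 4.12%, with a median log2 ratio of 0.53. In intermediate cells 31 of 35 were higher, against 42.5%, and past 2-fold 13 were higher and 0 lower, against 2.13% and 2.43%, with a median of 0.75. In periportal cells 29 of 35 were higher, against 44.3%, and past 2-fold 12 were higher and 0 lower, against 2.75% and 2.68%, with a median of 0.71. In large-vessel cells 32 of 36 were higher, against 47.3%, and past 2-fold 16 were higher and 0 lower, against 3.82% and 5.04%, with a median of 0.80. The medians of all genes lay between -0.07 and -0.03. The largest cluster of the intermediate class differed between the libraries. Cluster 0 held 911 control and 248 cirrhosis cells, and cluster 1 held 142 and 919. Cluster 4 held 493 and 430, and cluster 5 held 439 and 302. Within each of these the summed members were higher in cirrhosis, at 4938 against 3607 CPM in cluster 0, 6151 against 4076 in cluster 1, 5539 against 3904 in cluster 4 and 4641 against 3539 in cluster 5.

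The zones differed in single members. Oasl1 had 2 UMIs in control pericentral cells (0.527 CPM) and 94 in cirrhosis (16.2 CPM), with a log2 ratio of 4.94 (3.05 to 8.01), while in periportal cells it stood at 4.27 and 16.8 CPM (1.98, 1.18 to 2.87). Per UMI, control Oasl1 was highest in periportal cells (intermediate cells stood at 1.62 CPM), and in cirrhosis the zones lay between 13.2 and 16.8 CPM. The control levels were low, since 3 UMIs made 0.80 CPM in control periportal cells. One control periportal cell held 235 member UMIs, 1.42% of its class, and its part in the Oasl1 level was not tested. Ifit1 in pericentral cells stood at 7.90 and 33.9 CPM (2.10, 1.54 to 2.71). Rsad2 stood at 42.4 and 174 CPM in pericentral cells (2.03, 1.79 to 2.28) and at 60.03 and 145 CPM in periportal cells (1.27, 1.04 to 1.498). Isg15 was highest in periportal cells of the 3 zones, at 60.6 and 142 CPM, against 29.7 and 65.9 CPM in pericentral cells. Ifit2 had its largest ratio of the 3 zones in intermediate cells, at 35.6 and 95.7 CPM (1.43, 1.28 to 1.57), and stood at 48.3 and 79.3 CPM in periportal cells (0.72, 0.45 to 0.99).

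The log2 ratios of the abundant members Bst2 and Ifitm3 differed less between the zones than those of Oasl1, Rsad2 and Ifit2. Bst2 was nearly equal between the libraries in pericentral cells only. Bst2 stood at 656 and 639 CPM in pericentral cells, a log2 ratio of -0.04 (-0.11 to 0.04) whose sign turns when scaled to the median of all genes (shift -0.07). It stood at 689 and 973 CPM in intermediate cells (0.50, 0.46 to 0.53) and at 795 and 1081 CPM in periportal cells (0.44, 0.38 to 0.51). Ifitm3 was higher in each zone, at 1067 and 1635 CPM in pericentral, 998 and 1866 CPM in intermediate and 1287 and 2295 CPM in periportal cells. Gbp3 was near 2-fold in intermediate cells, at 12.0 and 23.8 CPM (0.99, 0.73 to 1.25), and just past it in periportal cells, at 16.5 and 33.4 CPM (1.01). In pericentral cells Gbp3 stood at 14.5 and 17.0 CPM (0.23, -0.25 to 0.74).

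In large-vessel cells the median log2 ratio was 1.29 for the 4 IFIT genes, which ranged from 0.43 for Ifit2 (interval -0.13 to 1.02) to 2.54 for Ifit3. It was -0.67 for the 5 measured GTPases, of which 3 were lower and 2 higher, and between -0.09 and 0.12 in the 3 zones. The 2 groups overlapped, since Gbp3 stood at 0.82 (0.07 to 1.64). Ifit3 stood at 20.6 and 120.1 CPM (log2 2.54, interval 1.87 to 3.296), Isg15 at 58.6 and 195 CPM (1.73, 1.32 to 2.17) and Irf7 at 24.9 and 104 CPM (2.05, 1.44 to 2.74). Irgm1 stood at 94.4 and 59.2 CPM (-0.67, -1.07 to -0.27) and Igtp at 60.7 and 38.1 CPM (-0.67, -1.17 to -0.17). Oasl1 and Oas2 each had 1 control UMI, against 40 and 27 in cirrhosis. Of the cells called central-vein-type there were 26 in the control library, too few to compare. Their members summed to 3721 CPM (3492 to 3961), and those of the 305 cirrhosis cells to 3782 CPM (3724 to 3841), the lowest level of the named endothelial classes in that library.

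**Figure D2:**
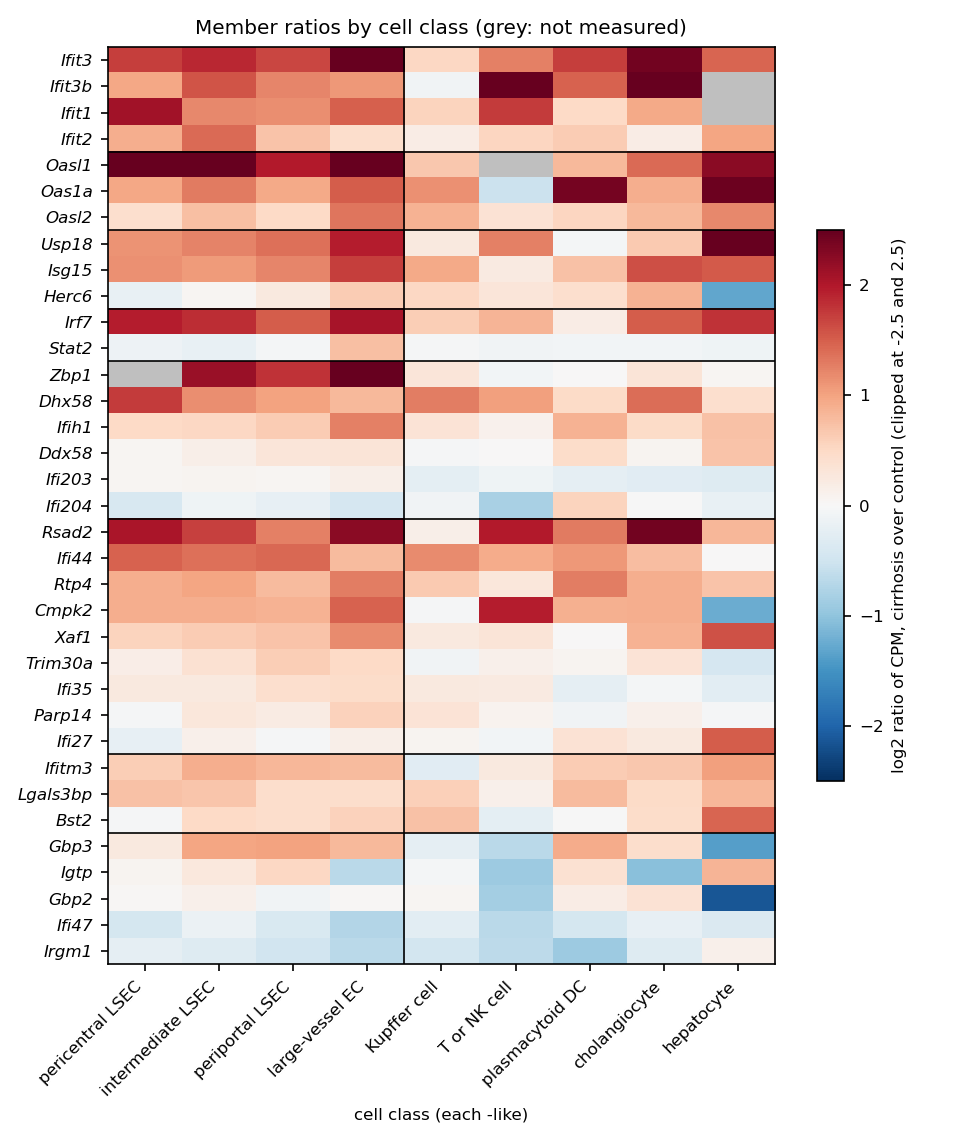
Log2 ratio of CPM, cirrhosis over control (colour), for the members measured in pooled LSEC-like cells (rows, grouped by role) in 9 cell classes (columns); the vertical line parts endothelial from other classes and grey cells were not measured. Rows of the IFIT genes and Irf7 are red across the endothelial columns, and Irgm1 and Ifi47 are pale or blue there.

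The third comparison asked whether all LSEC-like cells or a subset carried the difference. Each cell was thinned at random to 3000 UMIs, so that depth was equal, and its member UMIs were summed as a score. This left 2758 control and 2716 cirrhosis cells, and 220 and 113 shallower ones were left out. Both held: the whole distribution lay higher in cirrhosis, and its upper tail was longer. The mean score was 11.7 in control and 17.0 in cirrhosis. The lowest 10% of cells lay at or below 6 and 8 member UMIs, the median cell had 11 and 15, the 90th percentile was 18 and 27 and the 99th was 29 and 47. The highest control cell had 107 member UMIs and the highest cirrhosis cell 126. At least 10 member UMIs were found in 62.5% of control cells (Clopper-Pearson interval 60.6% to 64.3%) and 83.6% of cirrhosis cells (82.2% to 85.0%).

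Much of the shift of the low and middle cells came with the 5 members set aside as abundant, through Ifitm3, Bst2 and Lgals3bp. Mean UMIs per thinned cell in control and cirrhosis were 3.25 and 5.65 for Ifitm3 and 2.20 and 2.79 for Bst2. They were 0.65 and 0.99 for Lgals3bp, and nearly equal for Ifi27 (0.54 and 0.52) and Igtp (0.06 and 0.07). For the other 33 members the 10th percentile was 2 in both libraries and the median 4 and 5, while the 90th percentile was 9 and 14 and the 99th 18 and 30. Their mean was 4.95 and 7.01 UMIs per cell. It includes the little changed Ifi203 (0.94 and 0.96) and Ifi204 (0.62 and 0.55), whose part in the low scores was not tested. At least 10 UMIs of the 33 members were found in 7.65% of control cells (6.69% to 8.71%) and 22.8% of cirrhosis cells (21.2% to 24.4%). The variance over the mean was 2.84 in control and 5.78 in cirrhosis, where counting alone gives about 1. The top 10% of cells held 25.6% and 29.7% of the UMIs of the 33 members, so no small subset held most of them in either library. By zone, cells with at least 10 UMIs of the 33 members were 3.29% and 17.7% of pericentral, 7.72% and 22.8% of intermediate and 11.3% and 29.5% of periportal LSEC-like cells.

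**Figure D3:**
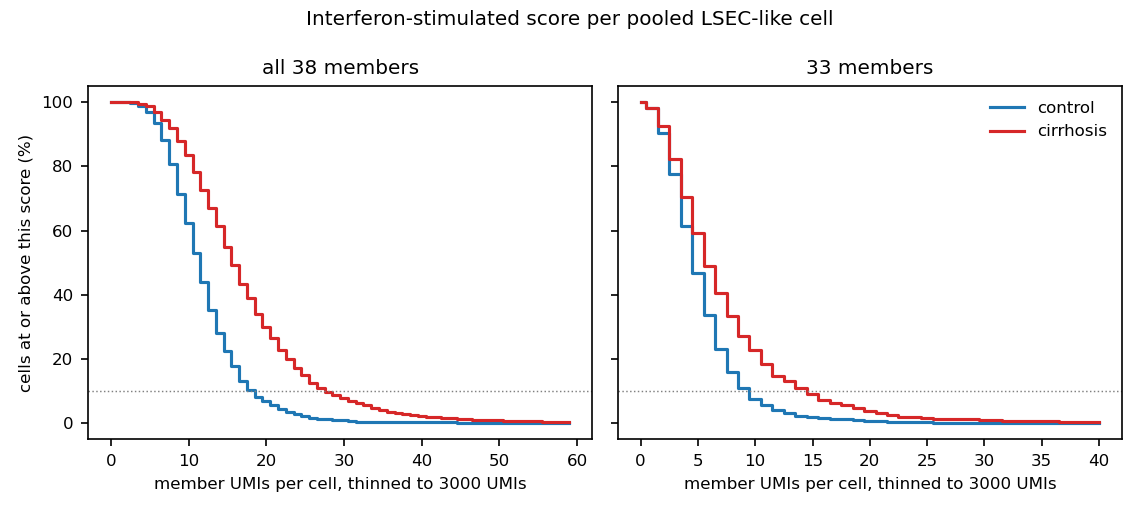
Share of pooled LSEC-like cells (y axis, percent) at or above a given score, the member UMIs of a cell thinned to 3000 UMIs (x axis), for all 38 members (left) and for 33 members without Ifitm3, Bst2, Lgals3bp, Ifi27 and Igtp (right); the dotted line marks 10% of cells. The curves part over most of the range on the left, and mainly above the median of 4 and 5 UMIs on the right.

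Single members showed the same mixture. Ifitm3 had a UMI in 93.5% of control and 97.9% of cirrhosis cells thinned to 3000 UMIs, and the cells with it held 3.47 and 5.77 UMIs on average. Rsad2 had a UMI in 12.8% and 30.8% of cells and Ifit3 in 6.06% and 16.1%, with 1.24 and 1.63, and 1.17 and 1.47, UMIs in the cells that had one. The medians before thinning were 6970 and 9667 UMIs, and no cell type here is known to lack these genes, so no background share could be set beside them.

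Members found together in the same cells were then read. The 33 members were divided in alternating list order into a first set of 17 and a second set of 16, cells were ranked by one set, and the other set was read in the top 10% and in the remaining cells. In control LSEC-like cells the set not used for ranking had means of 4.47 UMIs in 276 top cells and 2.21 in the other 2482, a ratio of 2.02, and 2.001 with the sets exchanged. In cirrhosis LSEC-like cells the means were 8.29 UMIs in 272 top cells and 2.90 in the other 2444, a ratio of 2.85, and 3.09 with the sets exchanged. Cells high in some members were thus high in others in both libraries. The near-identical Ifit3 and Ifit3b fell in different sets, so the sets are not fully separate, and the part of this pair was not tested. In control pericentral cells the ratios were 1.71 and 1.39, and in control periportal cells 2.60 and 2.77. In cirrhosis they were 2.55 and 3.01 in pericentral and 2.87 and 2.94 in periportal cells.

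Read singly in cells ranked by members of the other set, the ratio of top to remaining cirrhosis cells was 7.13 for Ifit1 (0.522 and 0.0732 UMIs per cell), 6.82 for Isg15, 5.94 for Ifit3 and 5.15 for Usp18. For Ifit3 the ranking set included its near-identical neighbour Ifit3b. GTPase genes that were lower or little different in cirrhosis were still higher in the top cells of each library. Ifi47 had 0.294 UMIs per top cell and 0.0904 in the remaining cirrhosis cells, a ratio of 3.25, and in control cells 0.250 and 0.121, a ratio of 2.07. Irgm1 had ratios of 2.15 in control and 2.35 in cirrhosis. Igtp, read in cells ranked by all 33, had ratios of 2.76 and 4.24. Ifi27 was an exception, at 0.964 and 1.05, and Bst2, Ifitm3 and Lgals3bp lay between 1.23 and 1.44.

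**Figure D4:**
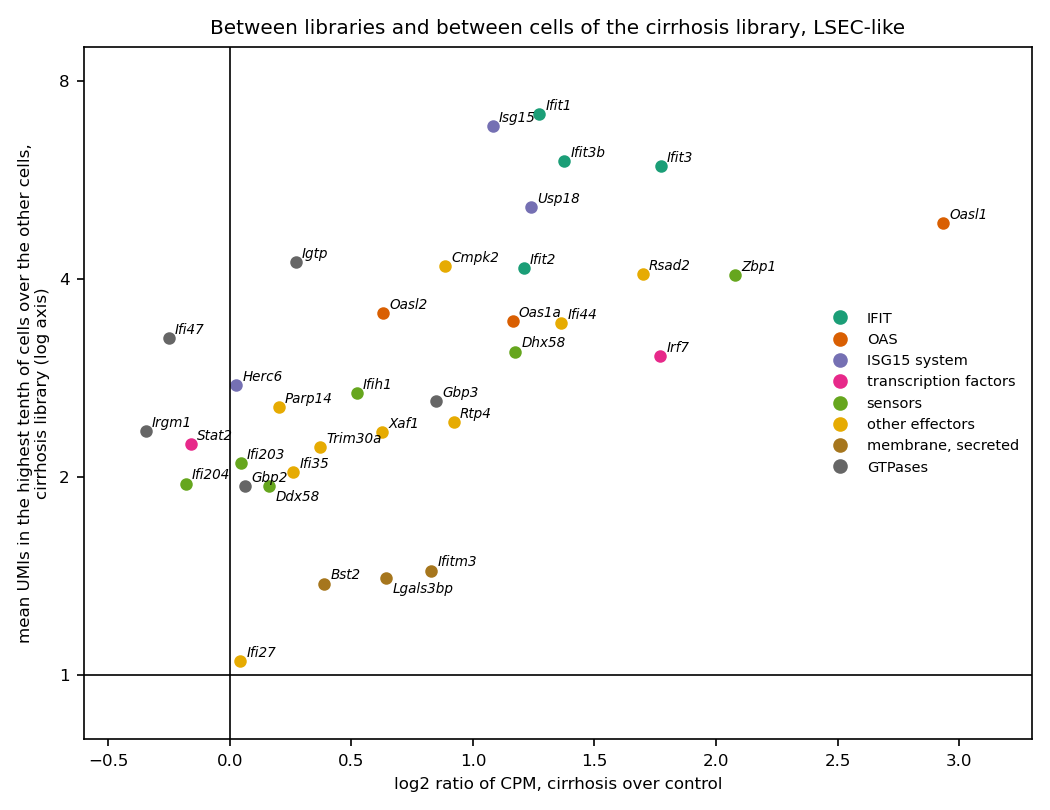
For each measured member in LSEC-like cells, the log2 ratio of CPM between the libraries (x axis) against the ratio of mean UMIs in the top 10% of cirrhosis cells to the remaining cirrhosis cells (y axis, log scale), the cells being ranked by members of the other set, or by all 33 for Ifitm3, Bst2, Lgals3bp, Ifi27 and Igtp. Ifi47 and Irgm1 lie left of 0 on the x axis and above 2 on the y axis, Ifit1 and Isg15 lie high on both, and Ifi27 lies near 1.

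The top 10% of cells, now ranked by all 33 members, also held more of some groups of interferon genes outside the list. Of the other interferon-stimulated genes, 39 of 40 measured were higher in the top control cells and 40 of 41 in the top cirrhosis cells, against 49.2% and 47.3% of all genes, and 9 and 23 of them by 2-fold or more, against 0.596% and 0.882%. The median log2 ratios were 0.68 and 1.15. Of the other interferon-inducible GTPases 8 of 8 and 7 of 7 were higher, with medians of 0.96 and 1.68, and of the immunoproteasome and peptide loading genes 10 of 10 were in both, with medians of 0.25 and 0.42. The other lists lay nearer to 0, with medians of 0.03 and 0.04 for receptors, 0.08 and 0.15 for JAK-STAT and IRF genes, 0.04 and 0.18 for negative regulators and 0.04 and 0.20 for sensors and adaptors. The top cells were 8.33% pericentral and 25% periportal in control, against 17.4% and 17.9% of the remaining cells, and 8.09% and 23.5% in cirrhosis, against 20.3% and 13.8%. Kupffer cell or macrophage markers were no higher in them, at 102 CPM against 111 in control and 272 CPM against 287 in cirrhosis. B cell markers were higher in the top cirrhosis cells, at 69.3 CPM against 48.7, as were cholangiocyte markers, at 53.2 CPM against 38.6, and their part in these values was not tested. In control these stood at 127 against 123 CPM and at 20.6 against 21.6 CPM. The depth of the top cells was slightly lower, at medians of 6871 against 7244 and 9101 against 9895 UMIs.

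The fourth comparison concerned the other cells of the 2 libraries, which were among the GFP-sorted barcodes. Hepatocyte-like barcodes were 3.998% of those retained in control and 17.2% in cirrhosis, Kupffer cell-like 5.77% and 9.68%, T or NK cell-like 5.59% and 3.73%, and the B, plasmacytoid dendritic and cholangiocyte-like classes between 1.15% and 1.85%. In Kupffer, T or NK and plasmacytoid dendritic cell-like barcodes the summed members stood between 0.999-fold and 1.13-fold of control. In cholangiocyte-like barcodes they stood at 1.43-fold, in hepatocyte-like at 2.01-fold and in B cell-like at 2.03-fold, beside 1.48-fold in LSEC-like cells. Without the 5 abundant members these were 1.49-fold, 1.31-fold and 2.35-fold, beside 1.40-fold in LSEC-like cells. The cholangiocyte-like values include 1 high cirrhosis cell described below. The B cell-like values stand on a median log2 ratio of 0.80 over all genes of that class. Differences between classes were not tested. Kupffer cell-like barcodes (286 and 696) summed to 3866 and 4277 CPM, 1.11-fold higher. All 38 members were measured there, 4 were past 2-fold higher and 0 lower, against 3.86% and 7.64% of all genes, and the median log2 ratio was 0.25, with all genes shifted by -0.11. The 4 were Ifi44 at 12.4 and 28.3 CPM, Mx1 at 4.29 and 10.7 CPM, Dhx58 at 18.0 and 43.8 CPM (1.28, 0.81 to 1.78) and Oas1a at 38.6 and 85.1 CPM (1.14, 0.82 to 1.48). Bst2 was also higher, at 323 and 537 CPM, whereas Ifitm3 stood at 1366 and 1130 CPM (-0.27, -0.33 to -0.21), against the direction in LSEC-like cells. Oasl1 stood at 13.7 and 21.9 CPM (0.68, 0.12 to 1.27). Oas2 and Zbp1, near 0 in LSEC-like cells of the control library, were present in both Kupffer groups, Oas2 at 28.3 and 22.9 CPM and Zbp1 at 37.3 and 46.0 CPM.

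T or NK cell-like barcodes (277 and 268) had equal sums, at 2446 and 2442 CPM, but their members parted by kind. Of 35 measured members 7 were past 2-fold higher and 0 lower, against 2.97% and 3.97% of all genes, with a median log2 ratio of 0.23. Rsad2 stood at 12.5 and 49.5 CPM (1.99, 1.37 to 2.64) and Ifit1 at 12.5 and 42.3 CPM (1.76, 1.13 to 2.42). All 4 IFIT genes were higher there, Ifit3b on 3 and 21 UMIs. Zbp1 was nearly equal, at 60.4 and 57.8 CPM (-0.06, -0.44 to 0.31), and Oas1a stood at 27.6 and 19.1 CPM (-0.53, -1.16 to 0.07). Igtp stood at 118 and 62.9 CPM (-0.91, -1.23 to -0.60), Gbp2 at 75.5 and 41.8 CPM (-0.85, -1.25 to -0.47) and Ifi47 at 218 and 137 CPM (-0.67, -0.89 to -0.45), all lower in cirrhosis. One cirrhosis cell held 7.08% of the member UMIs of this class, and without it the sum was 2289 CPM, against 2372 CPM in control without its highest cell. In cells thinned to 3000 UMIs, the score of the 33 less abundant members had medians of 4 in control and 3 in cirrhosis. At least 3 UMIs of them were found in 71.3% and 56.4% of cells. The top 5% of cells held 17.1% and 27.8% of these UMIs, so the higher members need not be higher in most cells.

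Plasmacytoid dendritic cell-like barcodes (60 and 83) summed to 4520 and 5104 CPM, 1.13-fold higher. Of 36 measured members 6 were past 2-fold higher and 1 lower, against 4.08% and 3.67% of all genes, and 10 were higher without the highest cell of each library. Their Irf7 was high in both libraries, at 142 and 162 CPM (0.19, -0.10 to 0.49), and Bst2, a marker of this type, stood at 2253 and 2246 CPM. Mx1 was the 1 lower member, at 22.7 and 8.26 CPM (-1.46, -2.54 to -0.45), which rested on 26 and 13 UMIs. Oasl1 and Zbp1 rested on 5 and 12 and on 13 and 18 UMIs. Cholangiocyte-like barcodes (89 and 125) summed to 2543 and 3641 CPM, with 28 of 35 measured members higher, against 45.3% of all genes, and past 2-fold 7 higher and 1 lower, against 4.46% and 2.55%. One cirrhosis cell of this class held 888 member UMIs, 7.56% of the class. Without it the sum was 3386 CPM, against 2505 CPM in control without its highest cell. In cells thinned to 3000 UMIs, the score of the 33 less abundant members had medians of 2 in control and 3 in cirrhosis. Its 99th percentiles were 12 and 10, but its maxima 20 and 125, and the variance over the mean was 2.55 and 29.0. The weight of single cells on each member's ratio is not given here. Igtp was the lower member there, at 61.7 and 29.8 CPM (-1.05, -1.46 to -0.65).

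Hepatocyte-like barcodes (198 and 1234) were shallow, at medians of 1033 and 1973 UMIs, and the genes as a whole were shifted by -0.25. Of 33 measured members 11 were past 2-fold higher and 4 lower, against 9.57% and 17.9% of all genes, with a median log2 ratio of 0.71. With a coarser first clustering (resolution 0.3), which put 458 control barcodes in the class, the median turned to -0.35 and 3 members were past 2-fold higher. Ifi27, at 218 and 626 CPM (1.52, 1.20 to 1.86), and Bst2, at 204 and 558 CPM (1.45, 1.12 to 1.81), were among the higher. The lower included Gbp2, on 10 and 27 UMIs, Gbp3, on 5 and 23, and Cmpk2, on 4 and 20. B cell-like barcodes (62 and 133) had 16 of 26 measured members past 2-fold higher and 0 lower, but 37.8% of all genes were too and 2.94% were lower. Their median log2 ratio of 1.08 stood beside 0.80 for all genes, and Bst2 stood at -0.08 beside it. Over all retained barcodes 28 of 35 measured members were higher, against 43.6% of all genes, and past 2-fold 11 were higher and 0 lower, against 4.2% and 2.45%, with a median of 0.56.

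The most abundant members did not share 1 pattern over the classes with at least 50 cells in each library. B cell-like barcodes are given apart, because the median log2 ratio of all genes was itself 0.80 there. Outside them, Ifitm3 was higher in cirrhosis in each class except Kupffer cell-like barcodes, with log2 ratios between -0.27 there and 1.02 in hepatocyte-like barcodes. Lgals3bp was higher in each, between 0.14 in T or NK and 0.83 in hepatocyte-like barcodes. Bst2 ranged from -0.25 in T or NK to 1.45 in hepatocyte-like barcodes. Ifi203 and Ifi204 outside B cell-like barcodes lay between -0.31 and 0.15 and between -0.82 and 0.55. Ifi27 lay between -0.20 in pericentral LSEC-like and 1.83 in B cell-like barcodes.

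The fifth comparison placed the members beside the rest of the interferon pathway in LSEC-like cells, in lists chosen by name. Interferon genes themselves were almost absent. The 14 type I and type III interferon genes with a row summed to 0 UMIs in all retained control barcodes and 3 in all retained cirrhosis barcodes, where a count of 0 allows up to 3. Ifng, the gene of interferon gamma, had 11 UMIs in control and 2 in cirrhosis LSEC-like cells. It was found in T or NK cell-like barcodes, with 645 UMIs in control (278 CPM, in 156 of 277 cells, 56.3%) and 74 in cirrhosis (38.2 CPM, in 52 of 268 cells, 19.4%), a log2 ratio of -2.87 (-3.23 to -2.52). The share of LSEC-like cells with an Ifng UMI was 0.369% and 0.0707%, and the T or NK cell-like class had median depths of 6875 and 5974 UMIs. Fos in these barcodes stood at 1084 and 232 CPM, and the part of that difference in the Ifng ratio was not tested.

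The receptors differed modestly and in both directions in LSEC-like cells, with counting intervals above 0 for 2 and below 0 for 2. The median log2 ratio of the 5 measured was -0.01, or 0.05 when scaled to the median of ratios, with 0 past 2-fold in either direction. Ifnar1 stood at 50.4 and 49.9 CPM (-0.01, -0.13 to 0.10) and Ifnar2 at 147 and 120.3 CPM (-0.29, -0.36 to -0.22). Ifngr1 stood at 73.5 and 93.3 CPM (0.34, 0.25 to 0.43) and Ifngr2 at 66.3 and 88.4 CPM (0.42, 0.32 to 0.51), and Il10rb, shared by the type III receptor, at 121 and 94.4 CPM (-0.36, -0.43 to -0.28). Among 10 measured JAK-STAT and IRF genes 7 were lower and 3 higher, beside the 42.5% of all genes that were higher, with a median of -0.19. Jak1, a kinase shared by these receptors, stood at 1289 and 938 CPM (-0.46, -0.48 to -0.43). Irf3, a transcription factor gene that acts upstream of interferon in viral infection, stood at 73.7 and 50.1 CPM (-0.56, -0.66 to -0.45). Of the 12 measured sensors and adaptors 9 were lower and 3 higher, where 42.5% of all genes were higher, with a median of -0.15, among them the adaptor gene Mavs at 34.6 and 23.4 CPM (-0.56, -0.71 to -0.41) and Unc93b1, a chaperone of endosomal Toll-like receptors, at 86.0 and 67.6 CPM (-0.35, -0.44 to -0.25). Traf3, at 11.9 and 16.9 CPM (0.51, 0.29 to 0.73), and Aim2, a DNA sensor, at 8.57 and 11.3 CPM (0.39, 0.13 to 0.66), were higher.

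Irf1 and the feedback inhibitors Socs1 and Socs3 were past 2-fold lower, but moved with the immediate-early RNA of the control cells. Irf1 stood at 212 and 74.2 CPM (log2 -1.52, interval -1.59 to -1.44), Socs1 at 117 and 27.4 CPM (-2.09, -2.21 to -1.97) and Socs3 at 480 and 103 CPM (-2.22, -2.28 to -2.16). In the 1891 control cells with high Fos they stood at 249.9, 141 and 609 CPM, and in the 974 control cells with low Fos at 92.8, 42.4 and 72.2 CPM. Against the latter the log2 ratios were -0.32, -0.63 and 0.51, so that Socs3 turned, and the part of the immediate-early RNA in these ratios was not tested. The median of the 10 measured negative regulators was -0.06, and 0.01 when scaled to the median of ratios. Higher among them were the phosphatase gene Ptpn11, at 54.4 and 82.3 CPM (0.60, 0.50 to 0.70), and Adar, an RNA editing enzyme, at 36.7 and 50.1 CPM (0.45, 0.32 to 0.58).

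Of 47 other interferon-stimulated genes, 39 were measured, 28 of them higher and 11 lower, against 42.5% of all genes higher. Past 2-fold were 5 higher and 2 lower, against 2.26% and 2.47%, and the median was 0.25. Slfn2, a growth regulator of the Schlafen family, stood at 2.72 and 28.5 CPM (log2 3.38, interval 3.01 to 3.79), and Ifi27l2a at 3.304 and 16.0 CPM (2.27, 1.91 to 2.65). Ifi213, of the p200 family, stood at 6.21 and 17.2 CPM (1.47, 1.19 to 1.75) and Ly6e, a surface protein that restricts coronaviruses, at 200.1 and 475 CPM (1.25, 1.20 to 1.30). Ifitm1 went against its relative Ifitm3, at 27.9 and 12.2 CPM (-1.19, -1.38 to -0.99), and did so against both groups of control cells (-1.17 and -1.24). The chemokine gene Cxcl10 stood at 98.5 and 45.1 CPM (-1.13, -1.23 to -1.02), but at 16.8 CPM in the control cells with low Fos, against which its log2 ratio was 1.42.

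Of 10 immunoproteasome and peptide loading genes, which interferon gamma induces, 8 were lower and 2 higher, with 0 past 2-fold and a median of -0.25, where 42.5% of all genes were higher and their median was -0.06. Psmb9, a subunit of the immunoproteasome, stood at 91.8 and 58.6 CPM (-0.65, -0.74 to -0.55), and B2m, the light chain of MHC class I, at 2579 and 1750 CPM (-0.56, -0.58 to -0.54). Nlrc5, the activator of MHC class I genes, stood at 16.3 and 11.4 CPM (-0.51, -0.73 to -0.29) and the peptide transporter gene Tap2 at 108 and 76.3 CPM (-0.50, -0.59 to -0.42). Psmb9 and B2m were as low against either group of control cells, with Psmb9 at -0.67 and -0.60 and B2m at -0.56 and -0.58. Of 7 measured GTPases outside the list 4 were higher and 3 lower, against 42.5% of all genes higher, with a median of 0.08, among them Iigp1 at 169 and 133 CPM (-0.34, -0.40 to -0.27) and Irgm2 at 29.4 and 38.6 CPM (0.39, 0.25 to 0.53). Gbp7 stood at 85.8 and 97.9 CPM (0.19, 0.10 to 0.27) and Gbp4 at 101 and 93.6 CPM (-0.11, -0.20 to -0.03).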

How the data were processed

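The deposited tables held raw UMI counts per gene symbol and barcode, whole numbers not normalized by the authors. Cell Ranger and mm10 were used, per the submitters' processing notes, and versions, annotation and filters were not given in the sources used here. Libraries were made with the 10x Single Cell 3' kit v3, per the labels' protocols. Barcodes needed 500 UMIs, 300 genes, under 20% mitochondrial and at most 5% erythroid counts, which removed 475 control and 666 cirrhosis barcodes. The likeliest doublets by simulated neighbours, at a rate that grew with the number of barcodes, were removed (214 and 470). Clustering (leidenalg 0.10.2, igraph 0.11.9, seed 1) used 2000 variable genes without members or other interferon genes, 30 components and 20 neighbours, at resolution 0.5 over all barcodes. Endothelial-like cells with at most 0.5% of counts from other cells' markers were then clustered again at 0.8, each library scaled separately and without mitochondrial, ribosomal protein, haemoglobin, immediate-early and heat shock genes. Clusters were named "-like" from fixed markers, and thresholds and the second resolution were set after seeing the data, which left 18.4% of control and 22.2% of cirrhosis barcodes in no compared class. Classes with at least 50 cells per library were compared, and names rebuilt in this way may differ from those of the study.

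Counts were summed per class and library and expressed as CPM, and the log2 ratio has an exact conditional 95% interval, which was tested on simulated counts. Named genes were every member at 10 CPM or more in LSEC-like cells of either library, in each class the 3 farthest from the pooled ratio and the most abundant, and in each other list up to 4 with the largest ratio at 10 CPM or more. Further genes and the single cells that were left out were chosen after their values were seen. The members and lists were chosen with earlier results of these data known. Positions are from GENCODE M21 (GRCm38), and promoters from RefSeq. PCR duplicates were collapsed by UMI, and intervals cover counting error only. Alternatives covered the level minimum, scaling, cell filters, doublets, resolution, thinning depth, control subclusters and abundant members. A gene that the naming rule picks in the signalling list is not reported here.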

Additional observations from a re-analysis of the deposited data

Results flagged for a closer look

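3 members were picked because their counting intervals lay above 0 in one endothelial class and below 0 in another. The difference between classes was not tested, each class has 1 library per group, and several members and classes were looked through. Stat2 had a log2 ratio of 0.74 in large-vessel endothelial-like cells (interval 0.17 to 1.36) and -0.18 in intermediate LSEC-like cells (-0.32 to -0.04). Ifi27 had 0.13 in intermediate (0.05 to 0.21) and -0.20 in pericentral LSEC-like cells (-0.34 to -0.07). Igtp had 0.51 in periportal LSEC-like cells (0.11 to 0.91) and -0.67 in large-vessel endothelial-like cells (-1.17 to -0.17), and shares an overlap with Irgm2.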

How the results depend on the processing

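No paired analysis was possible because there was 1 library per group, and for the same reason no replicate could be left out. The 34 summary results were recomputed under alternatives in 187 values, of which 161 kept their direction and stayed close to the reported value, 23 moved and 3 turned. The pooled LSEC-like median of 0.64 lay between 0.52 and 0.87 over 15 values. With a mean of 20 CPM as the minimum, which tests fewer genes, it was 0.52 with 8 of 29 members past 2-fold, and in intermediate LSEC-like cells 0.51 with 8. That minimum left 2 members past 2-fold in T or NK cell-like, 7 in B cell-like, 5 in hepatocyte-like and 7 in all retained barcodes. Without a minimum the medians were 0.84 in pooled LSEC-like cells and 0.68 in all retained barcodes. At 1.5-fold 20 pooled members counted, without Ifitm3, Bst2, Ifi27, Lgals3bp and Igtp the pooled median was 0.87, and set against only the low-Fos control cells (cluster 3) it was 0.80. Scaling by the median of ratios left 9 B cell-like members past 2-fold and turned the medians of the receptors to 0.049 and of the negative regulators to 0.0071. With the first clustering at resolution 0.3 the hepatocyte-like median turned to -0.35 with 3 members past 2-fold, and 458 control barcodes were then in that class. The cause was not tested. The log2 ratio of the mean score, 0.55 at 3000 UMIs, was 0.58 at 5000 UMIs, 0.56 without thinning and 0.50 without the 5 members named above, and the share of the score in the top 10% of cells was then 25.6% in control and 29.7% in cirrhosis, against 19.7% and 21.5% for all members. The top 5% of cells held 11.5% and 12.7%. Without the highest-scoring cell of each library, an alternative added after seeing the data, 10 plasmacytoid dendritic cell-like members were past 2-fold. Classes with under 100 cells in a library have wide intervals, and a member with few UMIs there has a ratio known only within them.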
